A study of Mus musculus with 17 samples.

Results

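The comparison was between the prefrontal cortex of PS19 mice and that of wild-type (WT) mice, and its members were chosen by the genotype labels alone: 5 WT and 6 PS19 libraries, which are 11 of the 17 libraries of the series. PS19 mice, called hTau in the labels, carry in addition to their own tau gene a human MAPT transgene with a mutation found in families with frontotemporal dementia. The transgene is driven by the mouse prion protein (Prnp) promoter, so human tau is made wherever that promoter is active and is not limited to the cells that form tangles in patients. Both genotypes were 8 months old, on the B6C3F1/J background, fed regular chow and carried an intact Chga, the gene of chromogranin A. The 6 other libraries came from CgA-KO/PS19 mice, which carry the same transgene and lack Chga, and their values are given only beside those of PS19. The study reports both males and females in each group, but the labels do not give the sex of the mouse behind each library. The p-values measure only the spread between these libraries.

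Tau is a neuronal protein that binds and steadies the microtubules of the axon. When it is heavily phosphorylated it leaves the microtubule and can assemble into filaments, and in tauopathies this is accompanied by loss of synapses and by activation of microglia and astrocytes. The comparison asked which genes of the cortex had a different RNA level in mice with the transgene.

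Totals ran from 8838334 to 184389431 counts in WT (median 62694363) and from 53271515 to 227651681 in PS19 (median 153213148), where 1 sequenced fragment contributes about 3 counts, and WT replicate 4 was the shallowest. Totals, the number of genes with a count, the mitochondrial share and the share of the 50 most abundant genes did not pass a two-sided exact permutation test between the genotypes (adjusted p between 0.358 and 0.792 over the 4 measures). PS19 replicates 4 to 6 were much closer to each other (robust SD of the log2 ratio between 0.0523 and 0.0607 over 3761 genes) than other PS19 pairs (0.146 to 0.201) or WT pairs (0.191 to 0.505). Their spread was still 1.86 to 2.31 times the counting noise, so they were not identical within sampling noise. They were kept as separate libraries, although the labels do not say whether they came from separate animals or preparations. A spread above counting noise does not show that they were independent. The main fit counted them as separate, and a fit that left out 1 of them still held the others. Markers of cortical excitatory neurons were present in all 11 libraries, with summed levels of 4644 to 7471 CPM (counts after scaling every library to the same effective size) in WT and 6946 to 8256 CPM in PS19. Markers of striatal neurons, a neighbouring brain region, summed to 2028 to 5808 CPM in WT and to 755 to 859 CPM in PS19 and were highest in WT replicates 3 and 5. Markers of the choroid plexus, the tissue of the ventricles that makes cerebrospinal fluid, summed to 192 to 1551 CPM in WT, where replicate 5 was the highest, and to 231 to 306 CPM in PS19. The part of these marker differences in the results was not tested, nor was whether the dissected tissue differed between libraries, and in bulk tissue fewer cells of a type and less RNA per cell cannot be told apart.

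Prnp, the gene whose promoter drives the transgene, was higher in every PS19 library. The mouse Prnp gene (ENSMUSG00000079037, chr2:131909928-131938429, plus strand, GRCm38) was at 843, 914.5, 774, 748 and 884 CPM in WT replicates 1 to 5 and between 1974 and 2368 CPM (median 2045.5) in PS19. This was 2.55-fold (log2 fold change 1.35, SE 0.13, adjusted p = 2.80e-05), from 832.5 ± 71 CPM (SD, n = 5) in WT, and the groups did not overlap. The CgA-KO/PS19 libraries were between 1236 and 2078.5 CPM. Whether reads of the transgene were counted at Prnp was not tested, so these values cannot be read as the level of the endogenous copy alone. The 250 bases before the annotated start of Prnp (GRCm38.p6, chr2:131909678-131909927, plus strand, RefSeq) are shown because this is the promoter region of the endogenous copy of the gene that drives human tau in these mice:

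Prnp promoter: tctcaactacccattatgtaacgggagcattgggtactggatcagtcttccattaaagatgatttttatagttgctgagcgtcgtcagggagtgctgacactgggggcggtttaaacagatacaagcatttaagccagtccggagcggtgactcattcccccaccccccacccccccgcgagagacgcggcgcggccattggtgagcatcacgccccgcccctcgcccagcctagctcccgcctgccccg

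Lamr1-ps1, a pseudogene at chr2:131904086-131904959 whose end lies 4969 bases before the start of Prnp, had no count in any WT library and was between 2.62 and 4.2 CPM (median 3.2) in all 6 PS19 libraries (adjusted p = 1.56e-08). It was between 1.27 and 2.4 CPM in the CgA-KO/PS19 libraries, so its counts were found in all libraries of mice with the transgene and in none without it. The source of its counts was not tested, and it was singled out after its values were seen. The list of Prnp and its neighbours on chromosome 2 had 11 tested genes, of which 3 were called higher (Prnp itself, Rassf2 and the adrenergic receptor gene Adra1d) and 1 lower (Prokr2). Without WT replicate 4 or without WT replicate 5, 1 of the 11 was called higher.

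Mouse Mapt, the endogenous tau gene (chr11:104231390-104332090, plus strand), was at 733, 739.6, 606, 199 and 701 CPM in WT replicates 1 to 5 and between 831 and 952 CPM (median 859) in PS19. It did not pass the test (log2 fold change 0.54, SE 0.23, adjusted p = 0.184), although the groups did not overlap, and WT replicate 4 was far below the other WT libraries. Human and mouse MAPT are similar in sequence, and how reads of the transgene were assigned was not tested. Chga was at 152, 160.5, 168, 152 and 180.1 CPM in WT replicates 1 to 5 and between 161.5 and 177 CPM (median 166) in PS19 and differed by less than the spread between libraries (log2 fold change 0.05, SE 0.079, adjusted p = 0.956), while all 6 CgA-KO/PS19 libraries were at 0.

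**Figure D1:**
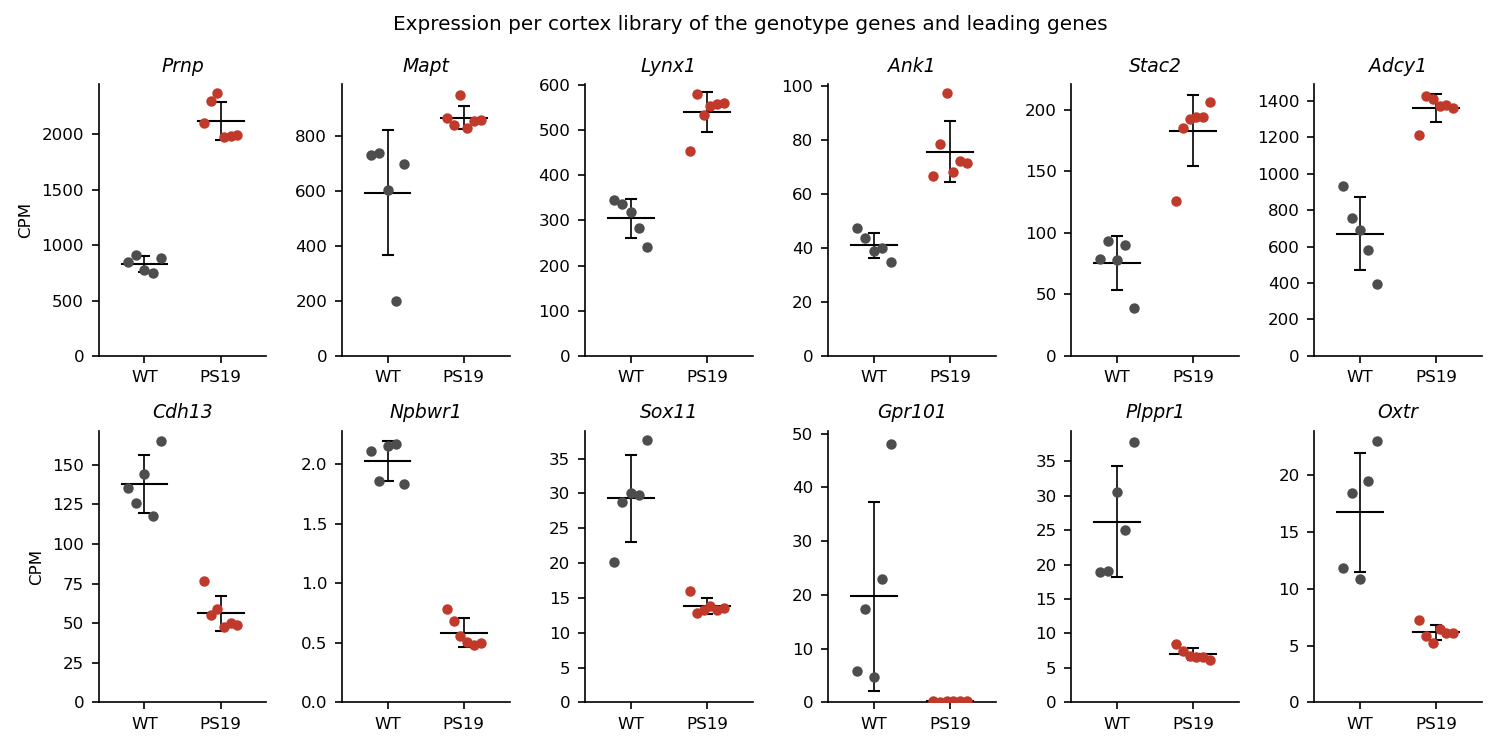
CPM of 12 genes (vertical axes, each from 0) in the 5 WT (grey) and 6 PS19 (red) libraries, where points are libraries, lines are means and bars are SD. Prnp lies at 1974 CPM or more in PS19 and at 914.5 CPM or less in WT. The 2 genotypes do not overlap in any of the 12 genes, which for those other than Prnp and Mapt was a condition of their choice.

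Over all genes, more were lower than higher in PS19. Of 23062 genes tested, 450 (1.95%) were higher and 911 (3.95%) were lower, 1361 (5.90%) in all, at an adjusted p under 0.05 (quasi-likelihood test of edgeR, Benjamini-Hochberg). The count of called members of each list below is to be read beside these shares. Called genes had a median log2 fold change of 0.72 in the higher and of -1.08 in the lower direction. A change of more than 2-fold was found for 113 of the higher and 496 of the lower genes, and of more than 8-fold for 11 and 146. At the threshold of the study's methods, an absolute log2 fold change over 0.5 with an unadjusted p under 0.01, 649 genes (2.81%) were higher and 1055 (4.57%) lower. The lowest library of one genotype lay above the highest of the other for 1182 higher (5.13%) and 1013 lower genes (4.39%). The number of higher genes rested on single libraries: it was 127 without WT replicate 5, and 231, 246, 257 and 253 without PS19 replicates 2, 4, 5 and 6. The number of lower genes was 505 without WT replicate 5. With PS19 replicates 4 to 6 averaged 75 genes were higher and 359 lower, and without WT replicates 3 and 5, an alternative added after seeing the data, 105 and 370.

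**Figure D2:**
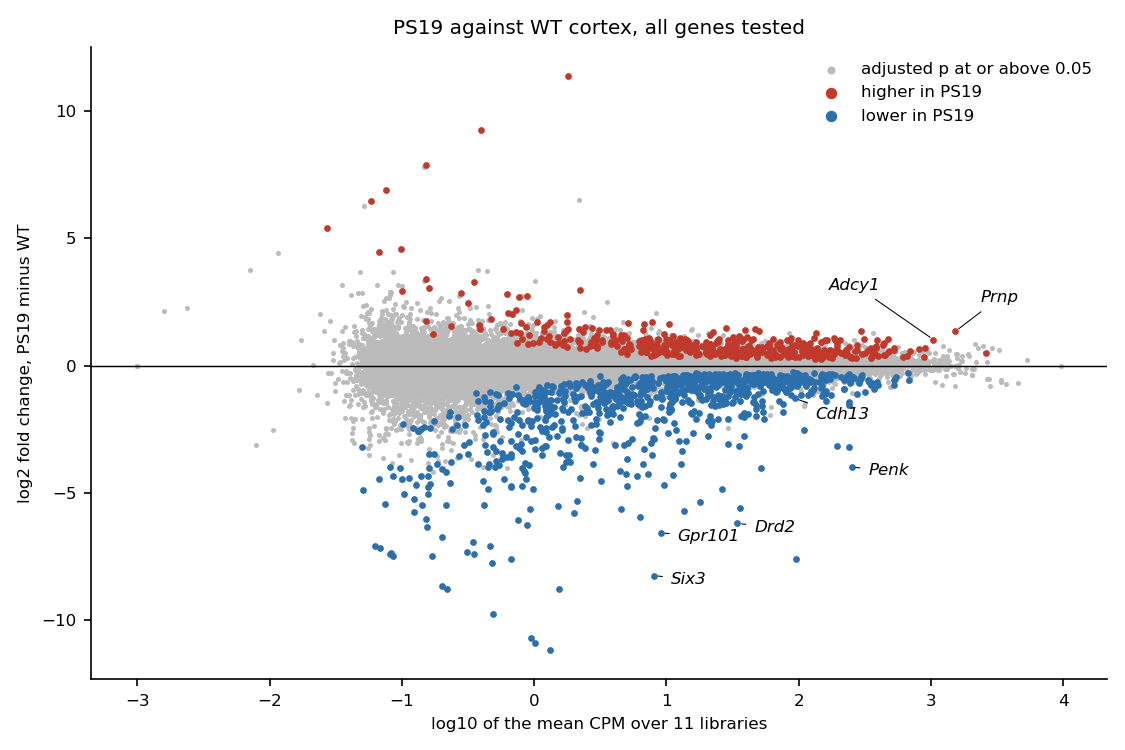
Log2 fold change (PS19 minus WT) against log10 of the mean CPM for the 23062 genes tested, with the 450 higher genes in red, the 911 lower in blue and the others in grey. Changes of over 8-fold are lower in 146 genes and higher in 11, and among the labelled genes Gpr101 is at -6.58 and Six3 at -8.26.

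The named genes higher in PS19 with the smallest p, among called genes whose libraries did not overlap, were, beside Prnp, the following. Pseudogenes and predicted gene models such as Lamr1-ps1 were not ranked. The absence of overlap given for these genes was thus a condition of their choice and not a result. Lynx1, a membrane-tethered brake on nicotinic acetylcholine receptors, was at 346, 336, 319, 282 and 241 CPM in WT replicates 1 to 5 and between 454 and 579 CPM (median 555.5) in PS19. Lynx1 rose 1.77-fold (log2 fold change 0.82, SE 0.11, adjusted p = 2.93e-04). Ank1, an ankyrin that links membrane proteins to the spectrin skeleton, was at 47.4, 43.7, 39, 39.9 and 35 CPM in WT replicates 1 to 5 and between 66.7 and 97.5 CPM (median 71.7) in PS19. Ank1 rose 1.85-fold (log2 fold change 0.89, SE 0.12, adjusted p = 3.24e-04). Adcy1, the calcium-stimulated adenylate cyclase, was at 929, 754, 692, 581 and 394 CPM in WT replicates 1 to 5 and between 1210.0 and 1427 CPM (median 1375) in PS19. Adcy1 rose 2.03-fold (log2 fold change 1.02, SE 0.16, adjusted p = 0.00137). None of these 3 genes had a PS19 library as low as the highest WT library, and the lowest PS19 library was replicate 1 for Lynx1 and Adcy1. Stac2, an adaptor of voltage-gated calcium channels, was at 78.4, 93.2, 78.1, 90.5 and 38.7 CPM in WT replicates 1 to 5 and between 126 and 206 CPM (median 193) in PS19. Stac2 rose 2.42-fold (log2 fold change 1.27, SE 0.19, adjusted p = 8.00e-04). Vamp1, a vesicle SNARE protein of fast-firing synapses, was at 149, 128, 95.7, 119 and 75.5 CPM in WT replicates 1 to 5 and between 185 and 285 CPM (median 243) in PS19. Vamp1 rose 2.14-fold (log2 fold change 1.09, SE 0.18, adjusted p = 0.00187). Both were also free of overlap, and WT replicate 5 was the lowest library for each. Vsig2 (log2 1.06, adjusted p = 5.37e-04), Coro6, a coronin that binds actin (log2 0.91, adjusted p = 0.00151), Syde1, a presynaptic GTPase activator (log2 0.75, adjusted p = 0.00154), and Baalc (log2 0.72, adjusted p = 0.00155) were also among them. These 9 genes and Prnp kept their call when any 1 of the 11 libraries was left out.

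The named lower genes with the smallest p, again chosen among called genes whose libraries did not overlap, were the following. Cdh13, a cadherin anchored to the membrane by a lipid, was at 136, 126, 144, 117.5 and 165 CPM in WT replicates 1 to 5 and between 47.7 and 76.6 CPM (median 52.5) in PS19. Cdh13 fell 2.45-fold (log2 fold change -1.29, SE 0.12, adjusted p = 2.80e-05). Sox11, a transcription factor of young neurons, was at 20.1, 28.7, 30.1, 29.8 and 37.7 CPM in WT replicates 1 to 5 and between 12.9 and 16 CPM (median 13.5) in PS19. Sox11 fell 2.12-fold (log2 fold change -1.08, SE 0.12, adjusted p = 1.83e-04). Plppr1, a membrane protein of growing neurites, was at 18.9, 19, 30.5, 25 and 37.8 CPM in WT replicates 1 to 5 and between 6.18 and 8.54 CPM (median 6.65) in PS19. Plppr1 fell 3.75-fold (log2 fold change -1.91, SE 0.22, adjusted p = 2.13e-04). For all 3 the lowest WT library lay above the highest PS19 library. Npbwr1, a receptor of neuropeptides B and W, was at 2.11, 1.86, 2.15, 2.17 and 1.83 CPM in WT replicates 1 to 5 and between 0.483 and 0.783 CPM (median 0.529) in PS19. Npbwr1 fell 3.47-fold (log2 fold change -1.79, SE 0.20, adjusted p = 1.83e-04). Oxtr, the oxytocin receptor, was at 11.8, 18.4, 10.9, 19.5 and 23 CPM in WT replicates 1 to 5 and between 5.23 and 7.29 CPM (median 6.14) in PS19. Oxtr fell 2.7-fold (log2 fold change -1.43, SE 0.17, adjusted p = 2.50e-04). Gpr101, an orphan receptor, was at 5.76, 17.3, 4.81, 22.9 and 48.1 CPM in WT replicates 1 to 5 and between 0.102 and 0.268 CPM (median 0.216) in PS19. Gpr101 fell 95.8-fold (log2 fold change -6.58, SE 0.75, adjusted p = 1.91e-04). These receptor genes did not overlap between genotypes, and Gpr101 varied the most among WT libraries. Ahi1, a protein of the base of the cilium, fell from a range of 184.8 to 368 CPM to one of 99.8 to 127 CPM (log2 fold change -1.15, SE 0.14, adjusted p = 2.50e-04). Nek10 (log2 -2.11, adjusted p = 2.21e-04), Rsph4a, a radial spoke protein of motile cilia (log2 -2.22, adjusted p = 2.50e-04), and Capsl (log2 -3.34, adjusted p = 2.50e-04) were also lower. All 10 of these genes were called in each of the 11 fits that left out 1 library.

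Markers of cortical layers moved in both directions. Of 15 tested markers of cortical excitatory neurons, 2 were higher and none lower (median log2 fold change 0.37, against 0.0097 over all genes tested). Of 19 upper-layer markers 4 were higher and 2 lower (median 0.58). Without WT replicates 3 and 5, 0 excitatory and 1 upper-layer markers were higher, and 0 and 0 with PS19 replicates 4 to 6 averaged. With limma voom and sample quality weights 7 and 12 were higher. With the mean striatal marker level as a covariate the medians were -0.21 and -0.32, with 1 and 0 markers higher and 6 and 5 lower. That level did not overlap between WT (0.558 to 2.19) and PS19 (-1.16 to -1.06), so the covariate fit is an extrapolation. It cannot show how these markers differ at an equal striatal level. Cux2, a transcription factor of upper-layer neurons, was at 155, 107, 95.5, 86.1 and 59.5 CPM in WT replicates 1 to 5 and between 156 and 207 CPM (median 194) in PS19. Cux2 rose 1.88-fold (log2 fold change 0.91, SE 0.20, adjusted p = 0.0118). Pou3f3, a POU-domain factor of the same layers, was at 88.6, 107, 105, 32.4 and 83.5 CPM in WT replicates 1 to 5 and between 136 and 179 CPM (median 153) in PS19. Pou3f3 rose 1.86-fold (log2 fold change 0.90, SE 0.21, adjusted p = 0.0156). Both genes were free of overlap, with WT replicate 5 the lowest for Cux2 and WT replicate 4 for Pou3f3. Stard8 was higher (log2 0.76, adjusted p = 0.0151), and so was Emx1, a factor of the cortical excitatory lineage (log2 0.94, adjusted p = 0.0346), but for Emx1 the call held in 3 of the 11 fits that each left out 1 library, with an adjusted p of up to 0.106 (without WT replicate 5). In the other direction Mdga1 (log2 -1.38, adjusted p = 4.74e-04), which regulates synapse adhesion, and Otof (log2 -1.51, adjusted p = 5.37e-04), a calcium sensor of vesicle release, fell.

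Deep-layer markers were lower more often than higher: 8 of 22 tested fell, 1 rose, and the median was -0.62. Without WT replicate 5 the count of lower markers was 5. Sulf1, an enzyme that trims heparan sulfate, was at 30.2, 27.6, 38.8, 32.7 and 39.2 CPM in WT replicates 1 to 5 and between 8.78 and 15.7 CPM (median 10.3) in PS19. Sulf1 fell 2.92-fold (log2 fold change -1.55, SE 0.22, adjusted p = 6.13e-04). Bcl11b, a transcription factor of corticospinal neurons that is also high in striatal neurons, was at 157, 194, 313, 194 and 345 CPM in WT replicates 1 to 5 and between 80.9 and 105 CPM (median 92.3) in PS19. Bcl11b fell 2.61-fold (log2 fold change -1.38, SE 0.24, adjusted p = 0.00227). Drd1, the D1 dopamine receptor, another gene shared with the striatum, was at 42.8, 43.9, 115, 41.6 and 102 CPM in WT replicates 1 to 5 and between 5.66 and 10 CPM (median 7.88) in PS19. Drd1 fell 8.88-fold (log2 fold change -3.15, SE 0.55, adjusted p = 0.00233). For both shared genes WT replicates 3 and 5, the libraries with the most striatal marker RNA, were the highest. Ccn2, a secreted matrix protein of the deepest cortical layer, was at 33.3, 33.4, 27.4, 32.8 and 19.9 CPM in WT replicates 1 to 5 and between 8.81 and 21.3 CPM (median 13.4) in PS19. Ccn2 fell 2.08-fold (log2 fold change -1.06, SE 0.21, adjusted p = 0.00564), and here WT replicate 5 was inside the PS19 range.

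Inhibitory neurons also split. Of 31 tested interneuron markers 3 were higher and 4 lower (median 0.07). Pvalb, the calcium buffer of fast-spiking basket cells, was at 34.6, 37.8, 21.2, 27.1 and 14.5 CPM in WT replicates 1 to 5 and between 61.4 and 75.9 CPM (median 72) in PS19. Pvalb rose 2.58-fold (log2 fold change 1.37, SE 0.24, adjusted p = 0.00244). Calb2, the calcium buffer calretinin of another interneuron class, was at 9.26, 22.8, 44.5, 20.9 and 35.9 CPM in WT replicates 1 to 5 and between 6.27 and 9.25 CPM (median 7.78) in PS19. Calb2 fell 3.48-fold (log2 fold change -1.80, SE 0.31, adjusted p = 0.00226). Nos1, nitric oxide synthase of scattered interneurons, was at 26.8, 59.8, 60.1, 135 and 91.4 CPM in WT replicates 1 to 5 and between 20.8 and 28.2 CPM (median 26.3) in PS19. Nos1 fell 2.91-fold (log2 fold change -1.54, SE 0.33, adjusted p = 0.00926). Pvalb and Calb2 did not overlap between genotypes and Nos1 did, through WT replicate 1. Cplx1, a complexin of vesicle fusion, rose (log2 0.64, adjusted p = 0.00338). Syt2 was higher in the test (log2 1.02, adjusted p = 0.0315), yet the call held in 4 of the 11 fits that each left out 1 library, with an adjusted p of up to 0.101 (without WT replicate 5). Gad2, which makes GABA, was lower (log2 -0.62, adjusted p = 0.0202), and the adjusted p was 0.0541 without WT replicate 4 and 0.0779 without WT replicate 5. Of 15 perineuronal net genes only Hapln4, a link protein of the net, was called (log2 1.0, adjusted p = 0.0454), and the call held in 2 of the 11 fits that each left out 1 library, with an adjusted p of up to 0.137 (without WT replicate 5).

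Markers of regions next to the prefrontal cortex held the largest share of lower genes. Of 30 tested striatal markers 25 (83.3%) were lower and none higher, with a median log2 fold change of -3.36. Penk, the enkephalin precursor, was at 308, 338, 654, 452 and 819 CPM in WT replicates 1 to 5 and between 22.7 and 41.1 CPM (median 33.1) in PS19. Penk fell 15.8-fold (log2 fold change -3.99, SE 0.56, adjusted p = 5.37e-04). Drd2, the D2 dopamine receptor, was at 38.9, 46.8, 122, 33.4 and 132 CPM in WT replicates 1 to 5 and between 0.601 and 1.31 CPM (median 1.01) in PS19. Drd2 fell 74.1-fold (log2 fold change -6.21, SE 1.10, adjusted p = 0.00246). Adora2a, an adenosine receptor paired with it in the striatum, was at 52, 49.8, 146, 17.6 and 123 CPM in WT replicates 1 to 5 and between 1.28 and 2.1 CPM (median 1.6) in PS19. Adora2a fell 48.5-fold (log2 fold change -5.60, SE 1.10, adjusted p = 0.0062). WT replicates 3 and 5 were the highest for each of them, and no PS19 library reached any WT library. Pde10a (log2 -3.21, adjusted p = 0.00978), a phosphodiesterase of striatal neurons, and Six3, a forebrain transcription factor (log2 -8.26, adjusted p = 0.00152), were lower as well. The number of lower striatal markers was 21 without WT replicate 5, 10 without WT replicates 3 and 5, and 12 with PS19 replicates 4 to 6 averaged. The mean striatal marker level per library, in log2(CPM + 1) around the mean of the 11 libraries, was 0.874, 1.03, 2.19, 0.558 and 2.08 in WT replicates 1 to 5 and between -1.16 and -1.06 in PS19. In CgA-KO/PS19 it was 1.68, -0.15 and 1.69 in replicates 1 to 3 and between -1.18 and -1.07 in replicates 4 to 6. The mitochondrial shares of CgA-KO/PS19 replicates 1 to 6 were 15.3%, 18.2%, 13.8%, 3.84%, 6.63% and 10.9%, against 2.56% to 4.59% in PS19. With the striatal marker level as a covariate 7 of the 30 markers were lower and 3 higher, which is a description, since the list itself sets the covariate. The striatal marker level also did not overlap between WT and PS19, so that fit is an extrapolation.

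Of 24 subcortical transcription factors 11 (45.8%) were lower, of 12 claustrum and insula markers 7 (58.3%, median -1.20), and of 16 hippocampal markers 4. Isl1, Lhx8 and Barhl2, factors of subcortical neurons, had no count in any PS19 library and were at 1.19 to 4.59, 1.11 to 4.17 and 0.781 to 4 CPM in WT. Sp9, a factor of striatal and interneuron lineages, was at 10.4, 10.5, 25.8, 16.3 and 20.3 CPM in WT replicates 1 to 5 and between 4.72 and 5.66 CPM (median 5.27) in PS19. Sp9 fell 3.19-fold (log2 fold change -1.67, SE 0.24, adjusted p = 6.13e-04). Car12, a carbonic anhydrase, was at 22.9, 35.8, 41.5, 22.7 and 69.4 CPM in WT replicates 1 to 5 and between 4.65 and 7.43 CPM (median 5.36) in PS19. Car12 fell 6.87-fold (log2 fold change -2.78, SE 0.38, adjusted p = 4.39e-04). Nr2f2, an orphan nuclear receptor, was at 29.5, 73.3, 18.8, 89.5 and 99.3 CPM in WT replicates 1 to 5 and between 13.4 and 18.5 CPM (median 15.3) in PS19. Nr2f2 fell 4-fold (log2 fold change -2.0, SE 0.30, adjusted p = 9.17e-04). The order of WT libraries was not shared, since Nr2f2 was highest in WT replicates 2, 4 and 5. Nr4a2, an activity-regulated nuclear receptor of the claustrum and deepest cortex, was at 78.4, 50.4, 48, 63.2 and 81.2 CPM in WT replicates 1 to 5 and between 9.22 and 48.7 CPM (median 11.8) in PS19. Nr4a2 fell 3.63-fold (log2 fold change -1.86, SE 0.37, adjusted p = 0.00574), and PS19 replicate 1 overlapped the WT range. Wfs1 (log2 -0.94, adjusted p = 0.00296) and Nnat (log2 -3.10, adjusted p = 8.16e-04) were the leading hippocampal markers. Of 22 genes of immature neurons 8 (36.4%) were lower and 1 higher, among them Gap43, a growth-cone protein (log2 -0.93, adjusted p = 2.50e-04), and Marcksl1 (log2 -1.39, adjusted p = 7.90e-04).

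**Figure D3:**
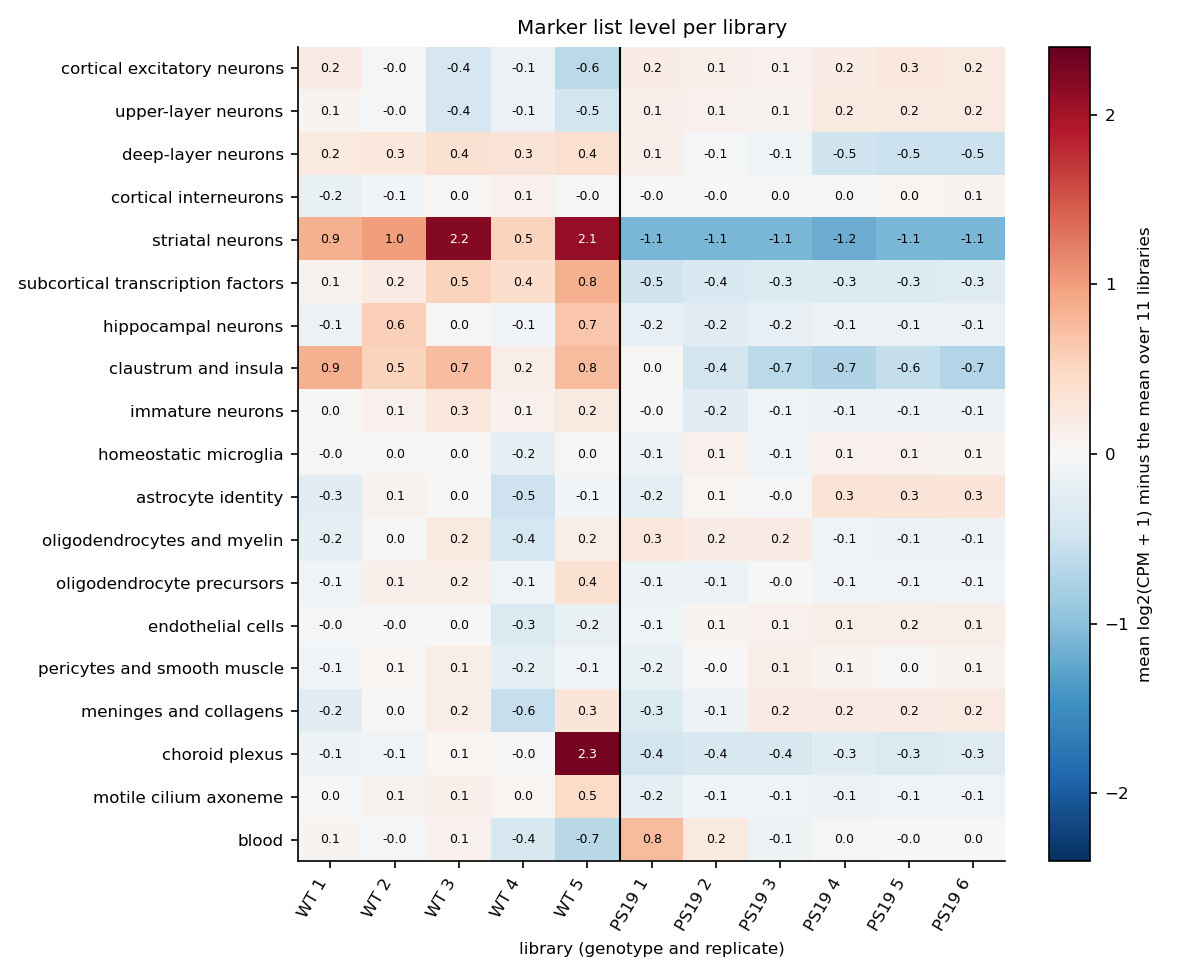
Mean log2(CPM + 1) of each marker list per library, minus the mean over the 11 libraries (colour scale and printed values), with libraries in columns and lists in lines. Striatal markers are positive in all 5 WT and negative in all 6 PS19 libraries, and choroid plexus markers stand out in WT replicate 5 at 2.3.

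Genes tied to tau and its phosphorylation were called in both directions. Of 39 tested genes of tau and other microtubule-associated proteins 2 were higher and 2 lower (median 0.03), and of 48 tau kinases and phosphatases 1 was higher and 4 lower (median 0.07), where 5.90% of all tested genes were called in either direction. Map1lc3b, which coats autophagosomes and also binds microtubules, was at 71.3, 77.1, 73.3, 52.6 and 58.7 CPM in WT replicates 1 to 5 and between 87.7 and 101 CPM (median 94.7) in PS19. Map1lc3b rose 1.42-fold (log2 fold change 0.50, SE 0.11, adjusted p = 0.00785). Ppp2r2a, a regulatory subunit of the phosphatase that removes phosphate from tau, was at 151, 155, 179, 224 and 204 CPM in WT replicates 1 to 5 and between 112 and 143 CPM (median 116) in PS19. Ppp2r2a fell 1.5-fold (log2 fold change -0.59, SE 0.13, adjusted p = 0.0109). Neither overlapped between genotypes. Map1lc3a was called higher (log2 0.57, adjusted p = 0.0392), though the call held in 4 of the 11 fits that each left out 1 library, with an adjusted p of up to 0.118 (without WT replicate 5). Cdk5r2, an activator of the tau kinase CDK5, was called higher (log2 0.30, adjusted p = 0.0417), though the call held in 2 of the 11 fits that each left out 1 library, with an adjusted p of up to 0.14 (without WT replicate 5). Among 23 genes of amyloid precursor processing, Apba1 was called higher (log2 0.31, adjusted p = 0.0265), and the call held in 5 of the 11 fits that each left out 1 library, with an adjusted p of up to 0.0927 (without WT replicate 5). Mme, the amyloid-degrading peptidase neprilysin, was called lower (log2 -1.30, adjusted p = 0.0324), and the call held in 5 of the 11 fits that each left out 1 library, with an adjusted p of up to 0.0931 (without WT replicate 3). Without WT replicate 5 no gene of the amyloid list and 1 of the kinase list was called.

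Receptors of noradrenaline and adrenaline, which act through calcium, through inhibition of cAMP or through its synthesis depending on the class, differed by subtype. Of 9 tested, 2 were higher and 2 lower (median -0.06), and without WT replicate 5 only 1 was called, lower. Adra2a, an inhibitory receptor, was at 22.6, 28.3, 19.8, 18.7 and 41.5 CPM in WT replicates 1 to 5 and between 8.51 and 16.6 CPM (median 10.4) in PS19. Adra2a fell 2.34-fold (log2 fold change -1.23, SE 0.21, adjusted p = 0.00198), and was called in each of the 11 fits without 1 library. Adra1b, a receptor coupled to calcium, was at 18.8, 19.8, 12.7, 12.9 and 9.08 CPM in WT replicates 1 to 5 and between 20.9 and 33.2 CPM (median 26.1) in PS19. Adra1b rose 1.83-fold (log2 fold change 0.87, SE 0.22, adjusted p = 0.0223). Adra1d, of the same class, was at 19, 23.1, 14.7, 6.16 and 7.98 CPM in WT replicates 1 to 5 and between 37.3 and 42.3 CPM (median 41.3) in PS19. Adra1d rose 2.81-fold (log2 fold change 1.49, SE 0.38, adjusted p = 0.0263), and it is also on the list of Prnp neighbours on chromosome 2. The groups did not overlap for these 3 genes. For Adra1b the adjusted p was 0.0535 without WT replicate 3, 0.0727 without WT replicate 5 and 0.0554 without PS19 replicate 2. For Adra1d the adjusted p was 0.0563 without WT replicate 4 and 0.0865 without WT replicate 5. Adra2b was at 0.636, 0.354, 1, 0.912 and 1.65 CPM in WT replicates 1 to 5 and between 0.0719 and 0.206 CPM (median 0.143) in PS19. Adra2b fell 6.32-fold (log2 fold change -2.66, SE 0.73, adjusted p = 0.0394), and the call held in 2 of the 11 fits that each left out 1 library, with an adjusted p of up to 0.136 (without WT replicate 5). Adra1a (log2 0.40, adjusted p = 0.0972), Adra2c (log2 -0.39, adjusted p = 0.397), Adrb1 (log2 0.65, adjusted p = 0.155) and Adrb3 (log2 -0.06, adjusted p = 0.924) did not pass the test, and Adra1a passed without WT replicate 3 (adjusted p = 0.0353). In CgA-KO/PS19 Adra1b was between 9.4 and 17.4 CPM, Adra1d between 7.2 and 32.6 CPM and Adra2a between 12.3 and 18.8 CPM.

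In the other transmitter lists more members were called lower than higher, except for the adenylate cyclases. Of 8 dopamine and adenosine receptors 3 were lower (the striatal genes above), of 13 serotonin receptors 4 (30.8%), and of 56 neuropeptide receptors 19 (33.9%, median -0.47) with 1 higher. Htr2c, a serotonin receptor also abundant in the choroid plexus, was at 66.4, 80.7, 69.6, 93.2 and 159 CPM in WT replicates 1 to 5 and between 17.4 and 28.5 CPM (median 19.6) in PS19. Htr2c fell 4.3-fold (log2 fold change -2.10, SE 0.38, adjusted p = 0.00316). Htr1b, a presynaptic serotonin receptor, was at 21.4, 31.1, 43, 25.3 and 60.5 CPM in WT replicates 1 to 5 and between 11.6 and 13.1 CPM (median 12) in PS19. Htr1b fell 2.97-fold (log2 fold change -1.57, SE 0.25, adjusted p = 0.00137). Both were highest in WT replicate 5 and did not overlap. Among 33 neuropeptide precursors 5 were lower and 1 higher. Trh, the precursor of thyrotropin-releasing hormone, was at 1.24, 14.3, 6.39, 9.01 and 20.1 CPM in WT replicates 1 to 5 and between 0.255 and 1.07 CPM (median 0.429) in PS19. Trh fell 19.3-fold (log2 fold change -4.27, SE 0.58, adjusted p = 4.52e-04). Its receptor gene Trhr was at 5.55, 15.9, 5.5, 20.6 and 28.7 CPM in WT replicates 1 to 5 and between 1.57 and 3.37 CPM (median 1.83) in PS19. Trhr fell 7.34-fold (log2 fold change -2.88, SE 0.36, adjusted p = 2.64e-04). Ligand and receptor were thus both lower without overlap. Nts, the neurotensin precursor (log2 -5.32, adjusted p = 0.00695), and Cartpt (log2 -1.21, adjusted p = 0.0126) were lower, and Apln, the apelin precursor, was higher (log2 0.93, adjusted p = 0.0205), but for Apln the adjusted p was 0.0606 without WT replicate 5, 0.0519 without PS19 replicate 4 and 0.0507 without PS19 replicate 6. Of 25 genes of acetylcholine receptors and handling 2 were higher and 6 lower. Chat, which makes acetylcholine, was at 2.69, 2.69, 10, 3.08 and 9.97 CPM in WT replicates 1 to 5 and between 0.216 and 0.475 CPM (median 0.438) in PS19. Chat fell 14.6-fold (log2 fold change -3.87, SE 0.82, adjusted p = 0.00846). Slc5a7, the choline transporter of the same neurons, was at 6.31, 6.73, 21.9, 10.2 and 21.6 CPM in WT replicates 1 to 5 and between 0.965 and 1.71 CPM (median 1.38) in PS19. Slc5a7 fell 9.81-fold (log2 fold change -3.29, SE 0.65, adjusted p = 0.00521). WT replicates 3 and 5 were the highest for both, as for the striatal markers. Chrm3, a muscarinic receptor, was called higher (log2 0.79, adjusted p = 0.0396), and the call held in 2 of the 11 fits that each left out 1 library, with an adjusted p of up to 0.123 (without WT replicate 5). Prokr2, a prokineticin receptor, was lower (log2 -1.89, adjusted p = 0.00151), with overlap between the genotypes. Of 10 adenylate cyclases Adcy1 and Adcy2 (log2 0.45, adjusted p = 0.0293) were called higher, and for Adcy2 the call held in 4 of the 11 fits that each left out 1 library, with an adjusted p of up to 0.0927 (without WT replicate 5). Of 21 phosphodiesterases 6 (28.6%) were lower.

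**Figure D4:**
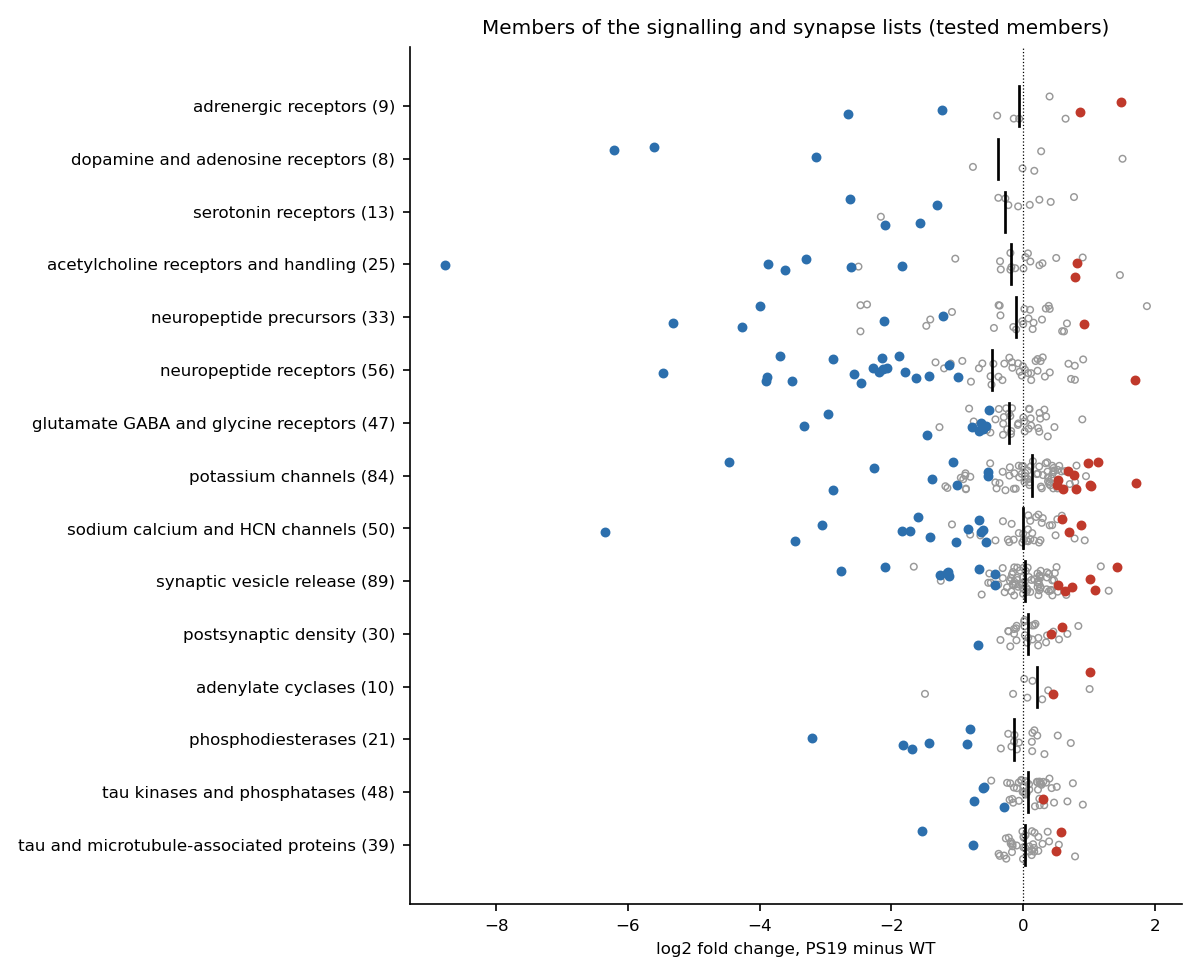
Log2 fold change (PS19 minus WT, horizontal axis) of every tested member of the signalling and synapse lists, with called members filled red (higher) or blue (lower) and others open. Called members of the neuropeptide receptor list lie to the left apart from 1, whereas potassium channels have 11 called to the right and 8 to the left.

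Ion channels changed in both directions. Of 84 potassium channel genes 11 (13.1%) were higher and 8 (9.52%) lower (median 0.13), but without WT replicate 5 the counts were 1 and 4. Kcng4, a modifier subunit of fast-spiking neurons, was at 4.17, 5.53, 3.37, 3.88 and 0.599 CPM in WT replicates 1 to 5 and between 6.72 and 13.8 CPM (median 12.8) in PS19. Kcng4 rose 3.28-fold (log2 fold change 1.71, SE 0.36, adjusted p = 0.00881). Kcna4, a channel of rapidly inactivating current, was at 41.9, 42.3, 64.4, 57.6 and 62.4 CPM in WT replicates 1 to 5 and between 24.5 and 30.1 CPM (median 26.5) in PS19. Kcna4 fell 2.01-fold (log2 fold change -1.0, SE 0.14, adjusted p = 4.39e-04). Kcng1, another modifier subunit, was at 32.8, 61, 40.9, 46.2 and 88.7 CPM in WT replicates 1 to 5 and between 18.1 and 23.9 CPM (median 20.6) in PS19. Kcng1 fell 2.6-fold (log2 fold change -1.38, SE 0.21, adjusted p = 8.00e-04). These 3 genes were free of overlap. Of 50 sodium, calcium and HCN channel genes 3 were higher and 13 (26%) lower, and 1 and 8 without WT replicate 5. Scn3a, a sodium channel best known from the developing brain, was at 72.5, 70.2, 90, 78.8 and 104 CPM in WT replicates 1 to 5 and between 43.1 and 50.5 CPM (median 45.9) in PS19. Scn3a fell 1.79-fold (log2 fold change -0.84, SE 0.10, adjusted p = 2.50e-04). Cacna1e (log2 -0.65, adjusted p = 0.00205), an R-type calcium channel, and Hcn4 (log2 -1.59, adjusted p = 7.89e-04), a pacemaker channel, were lower. Of 47 receptors of glutamate, GABA and glycine none was higher and 11 (23.4%) were lower, 7 without WT replicate 5. They included Grm5, a metabotropic glutamate receptor (log2 -0.67, adjusted p = 0.00397), Grik2, a kainate receptor (log2 -0.65, adjusted p = 0.0051), and Gabrq, a GABA receptor subunit (log2 -3.32, adjusted p = 3.07e-04).

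At the synapse, 6 of 89 vesicle release genes were higher and 9 lower (median 0.03), and 3 and 6 without WT replicate 5. Rims3, an active-zone protein, was at 37, 27.7, 23.5, 21 and 12.7 CPM in WT replicates 1 to 5 and between 55.9 and 71.7 CPM (median 68.8) in PS19. Rims3 rose 2.68-fold (log2 fold change 1.42, SE 0.25, adjusted p = 0.00224). Doc2b, a calcium sensor of spontaneous release, was at 43.7, 68.8, 73.4, 46 and 131 CPM in WT replicates 1 to 5 and between 7.68 and 13.3 CPM (median 11.2) in PS19. Doc2b fell 6.8-fold (log2 fold change -2.76, SE 0.41, adjusted p = 8.16e-04). Syt9, a synaptotagmin, was at 12.8, 15.2, 20.3, 13 and 23.5 CPM in WT replicates 1 to 5 and between 6.59 and 8.25 CPM (median 6.98) in PS19. Syt9 fell 2.4-fold (log2 fold change -1.26, SE 0.16, adjusted p = 2.50e-04). None of the 3 overlapped. Of 30 postsynaptic density genes, Iqsec1 (log2 0.42, adjusted p = 0.0112) and Shank1 (log2 0.60, adjusted p = 0.0429) were called higher, and for Shank1 the call held in 3 of the 11 fits that each left out 1 library, with an adjusted p of up to 0.128 (without WT replicate 5). Baiap2, a scaffold of dendritic spines, was at 319, 310.3, 292.5, 293 and 324 CPM in WT replicates 1 to 5 and between 180.5 and 211 CPM (median 189) in PS19. Baiap2 fell 1.61-fold (log2 fold change -0.69, SE 0.097, adjusted p = 5.37e-04). Of 34 immediate early genes, induced by neuronal activity, 2 were lower: Nr4a2 and Jun (log2 -0.67, adjusted p = 0.027), and for Jun the call held in 6 of the 11 fits that each left out 1 library, with an adjusted p of up to 0.105 (without WT replicate 5). Camkk2, a calcium-activated kinase upstream of AMPK, was higher (log2 0.56, adjusted p = 0.0133), and the adjusted p was 0.0501 without WT replicate 5.

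None of 24 markers of homeostatic microglia was called (median 0.07), against 5.90% of all tested genes. The members with the smallest p were Siglech, at 8.65, 4.53, 4.05, 4.45 and 3.89 CPM in WT replicates 1 to 5 and between 3.11 and 4.63 CPM (median 3.21) in PS19 (log2 -0.58, adjusted p = 0.136), and P2ry13, at 18.3, 19, 17.3, 18 and 18 CPM in WT replicates 1 to 5 and between 12.9 and 16.6 CPM (median 15.7) in PS19 (log2 -0.23, adjusted p = 0.329). Of 39 genes of disease-associated microglia 3 were higher and 2 lower (median 0.20). Cd83, an activation marker, was at 12.5, 10.2, 12.7, 8.67 and 10.5 CPM in WT replicates 1 to 5 and between 13.1 and 18.3 CPM (median 17) in PS19. Cd83 rose 1.51-fold (log2 fold change 0.59, SE 0.13, adjusted p = 0.011). Lpl, a lipase also made by neurons, was at 32, 37, 43.8, 34.7 and 60.3 CPM in WT replicates 1 to 5 and between 12.9 and 19.7 CPM (median 16.3) in PS19. Lpl fell 2.56-fold (log2 fold change -1.35, SE 0.19, adjusted p = 4.96e-04). Members of this list therefore moved both ways. Fabp5 was called higher (log2 0.40, adjusted p = 0.0236), and the call held in 7 of the 11 fits that each left out 1 library, with an adjusted p of up to 0.0833 (without WT replicate 5). Timp2 was lower (log2 -0.69, adjusted p = 0.0167), and the adjusted p was 0.0649 without WT replicate 5. Of the cytokine and chemokine genes listed, Il1b (log2 0.80, adjusted p = 0.255) and Cxcl10 (log2 -0.56, adjusted p = 0.722) had enough counts to be tested and did not pass. Il6, Tnf, Cxcl1, Ccl2 and Ccl3 did not exceed 0.123 CPM in any WT or PS19 library, and Cxcl2 and Il10 had no count in any of the 11, so differences in these genes were not detectable at this depth.

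Complement and interferon genes held a few higher members, where 1.95% of all tested genes were called higher. Without WT replicates 3 and 5, 1 complement gene, 1 interferon response gene and 2 interferon-inducible GTPases were called higher. Of 30 complement genes 3 (10%) were higher and none lower. C2 was at 0.521, 0.461, 0.894, 0.456 and 0.801 CPM in WT replicates 1 to 5 and between 0.838 and 2.16 CPM (median 1.71) in PS19. C2 rose 2.56-fold (log2 fold change 1.36, SE 0.25, adjusted p = 0.00338). C1s1 (log2 1.06, adjusted p = 0.0175) and C1ra (log2 1.67, adjusted p = 0.0296), proteases of the classical pathway, were the others. For C1s1 the adjusted p was 0.0681 without WT replicate 5, and for C1ra the call held in 4 of the 11 fits that each left out 1 library, with an adjusted p of up to 0.0922 (without WT replicate 5). Of 41 genes of the type I interferon response 2 were higher, led by Cmpk2, a mitochondrial nucleotide kinase, at 24.1, 22.4, 25.8, 20.9 and 21 CPM in WT replicates 1 to 5 and between 27.6 and 32.9 CPM (median 30) in PS19 (log2 fold change 0.40, SE 0.089, adjusted p = 0.0126). Of 17 interferon-inducible GTPases Irgm1 (log2 0.56, adjusted p = 0.0102) and Igtp (log2 0.81, adjusted p = 0.0181) were higher, and for Igtp the adjusted p was 0.0671 without WT replicate 5. Psmb10, an immunoproteasome subunit, was higher (log2 0.72, adjusted p = 0.0194), and the adjusted p was 0.0653 without WT replicate 5. Calr, a chaperone of the endoplasmic reticulum, was called lower (log2 -0.54, adjusted p = 0.0354), and the call held in 2 of the 11 fits that each left out 1 library, with an adjusted p of up to 0.116 (without WT replicate 5).

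Astrocyte identity genes had 3 higher and 1 lower of 27 tested (median 0.33). Gjb6, a connexin of astrocyte gap junctions, was at 23, 31, 25.6, 25.9 and 16.8 CPM in WT replicates 1 to 5 and between 30.8 and 51.2 CPM (median 38.7) in PS19. Gjb6 rose 1.61-fold (log2 fold change 0.69, SE 0.16, adjusted p = 0.0141). Aldh1l1, an enzyme of folate metabolism used as an astrocyte marker, was at 31, 36.1, 34, 24.6 and 23.7 CPM in WT replicates 1 to 5 and between 44 and 60.8 CPM (median 49.8) in PS19. Aldh1l1 rose 1.7-fold (log2 fold change 0.76, SE 0.18, adjusted p = 0.0166), and the adjusted p was 0.0627 without WT replicate 5. Id4, an inhibitor of differentiation, was at 78.7, 86.2, 124, 135 and 134 CPM in WT replicates 1 to 5 and between 48 and 60.8 CPM (median 53.9) in PS19. Id4 fell 2.07-fold (log2 fold change -1.05, SE 0.22, adjusted p = 0.00879). Gjb6 overlapped between genotypes and the other two did not. Of 37 genes of reactive astrocytes 1 was higher and 2 lower: Vim, an intermediate filament, was called higher (log2 0.46, adjusted p = 0.0451), and the call held in 3 of the 11 fits that each left out 1 library, with an adjusted p of up to 0.102 (without PS19 replicate 6), whereas Cd44, a hyaluronan receptor, was lower (log2 -1.52, adjusted p = 0.00114). Of 34 oligodendrocyte and myelin genes only Ptgds was called, higher (log2 1.05, adjusted p = 0.0423), and the call held in 3 of the 11 fits that each left out 1 library, with an adjusted p of up to 0.0941 (without WT replicate 4). Among oligodendrocyte precursor genes Lhfpl3 was lower (log2 -0.86, adjusted p = 0.0019). Endothelial genes had 2 higher of 34, Cxcl12 (log2 0.42, adjusted p = 0.0141) and Vwf (log2 0.78, adjusted p = 0.0297). For Cxcl12 the adjusted p was 0.0546 without WT replicate 5, and for Vwf the call held in 3 of the 11 fits that each left out 1 library, with an adjusted p of up to 0.1 (without WT replicate 5). Of 62 meningeal and collagen genes 1 was higher and 6 lower, and 0 and 3 without WT replicate 5. Col6a1 was lower (log2 -1.18, adjusted p = 0.00926), and Dcn, which binds collagen fibrils, was lower (log2 -2.11, adjusted p = 0.0208), for which the adjusted p was 0.059 without WT replicate 2 and 0.0954 without WT replicate 5.

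The called members of the choroid plexus and motile cilium lists were all lower. Of 19 choroid plexus genes 11 (57.9%) were lower (median -2.74), and 5 without WT replicate 5. Clic6, an intracellular chloride channel protein, was at 5.84, 4.1, 6.46, 4.79 and 24.7 CPM in WT replicates 1 to 5 and between 0.391 and 0.69 CPM (median 0.472) in PS19. Clic6 fell 17.8-fold (log2 fold change -4.16, SE 0.59, adjusted p = 5.49e-04). Sostdc1, a secreted BMP antagonist, was at 0.492, 1.41, 0.756, 1.14 and 19.3 CPM in WT replicates 1 to 5 and between 0.128 and 0.271 CPM (median 0.236) in PS19. Sostdc1 fell 21.6-fold (log2 fold change -4.43, SE 0.78, adjusted p = 0.00246). Kl, the ageing-linked protein klotho, was at 5.47, 5.29, 5, 2.74 and 35.4 CPM in WT replicates 1 to 5 and between 1.77 and 2.79 CPM (median 2.33) in PS19. Kl fell 4.7-fold (log2 fold change -2.23, SE 0.47, adjusted p = 0.00797). WT replicate 5 was far above every other library for all 3, and all 3 were still called without it, although for Kl WT replicate 4 was inside the PS19 range. Of 96 motile cilium genes 18 (18.8%) were lower and none higher (median -0.51), and 9 without WT replicate 5. Their summed level was 387 to 539 CPM in WT and 307 to 335 CPM in PS19.

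Motile cilia are moved by an axoneme of microtubules and dynein, whose genes are switched on by RFX factors. Rfx3, one of these factors (chr19:27761721-28011166, minus strand, GRCm38), was at 64.7, 84.1, 79.8, 88.5 and 106 CPM in WT replicates 1 to 5 and between 36.7 and 51.1 CPM (median 45.7) in PS19. Rfx3 fell 1.93-fold (log2 fold change -0.95, SE 0.12, adjusted p = 3.06e-04). Hydin, a protein of the central pair of the axoneme (chr8:110266977-110610253, plus strand), was at 0.81, 2.14, 1.43, 2.62 and 2.91 CPM in WT replicates 1 to 5 and between 0.164 and 0.563 CPM (median 0.338) in PS19. Hydin fell 5.33-fold (log2 fold change -2.41, SE 0.41, adjusted p = 0.00197). Rsph1, a radial spoke protein, was at 4.54, 3.57, 4.53, 7.98 and 10.5 CPM in WT replicates 1 to 5 and between 1.46 and 2.74 CPM (median 2.13) in PS19. Rsph1 fell 2.97-fold (log2 fold change -1.57, SE 0.27, adjusted p = 0.00239). No PS19 library reached a WT library for any of the 3. A half-site of the RFX motif, GTTGCC, was searched on both strands (GGCAAC on the other). The 250 bases before the Hydin start (GRCm38.p6, chr8:110266727-110266976, plus strand, RefSeq) are shown with the matching half-site in capitals:

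Hydin promoter: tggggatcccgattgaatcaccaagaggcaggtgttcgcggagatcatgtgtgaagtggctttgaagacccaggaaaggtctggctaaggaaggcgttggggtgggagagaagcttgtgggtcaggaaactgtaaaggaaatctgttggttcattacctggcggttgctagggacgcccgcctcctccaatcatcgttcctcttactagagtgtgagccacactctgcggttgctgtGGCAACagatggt

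The half-site was found in the 250-base window of 41.3% of the cilium genes with a window (31 of 75), against 11.8% of 27025 genes. It was found for 37.5% of the cilium genes that were lower (6 of 16) and for 42.4% of the others (25 of 59). A match is a string of letters and was not tested as a site.

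Among genes of energy supply and protein turnover, none of 13 mitochondrially encoded genes was called (median -0.60). mt-Nd2, a complex I subunit, was at 2199, 2692, 2535, 7946 and 2853 CPM in WT replicates 1 to 5 and between 1446 and 2719 CPM (median 2251) in PS19 (log2 -0.81, adjusted p = 0.267), where WT replicate 4 was far above the rest. Of 98 nuclear respiratory chain genes 3 were higher (median 0.22), led by Cox5a (log2 0.52, adjusted p = 0.0189), and the adjusted p was 0.0641 without WT replicate 5. Of 90 cytosolic ribosomal protein genes 1 was higher (median 0.34), and of 63 autophagy and lysosome genes 4 (median 0.14). Without WT replicate 5 no respiratory or ribosomal gene and 1 autophagy or lysosome gene was called higher. Of 42 heat shock genes 1 was higher and 2 were lower, and of 40 unfolded protein response genes 1 was lower. Near the Prnp locus Rassf2 was called higher (log2 0.42, adjusted p = 0.0411), and the call held in 2 of the 11 fits that each left out 1 library, with an adjusted p of up to 0.126 (without WT replicate 5).

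**Figure D5:**
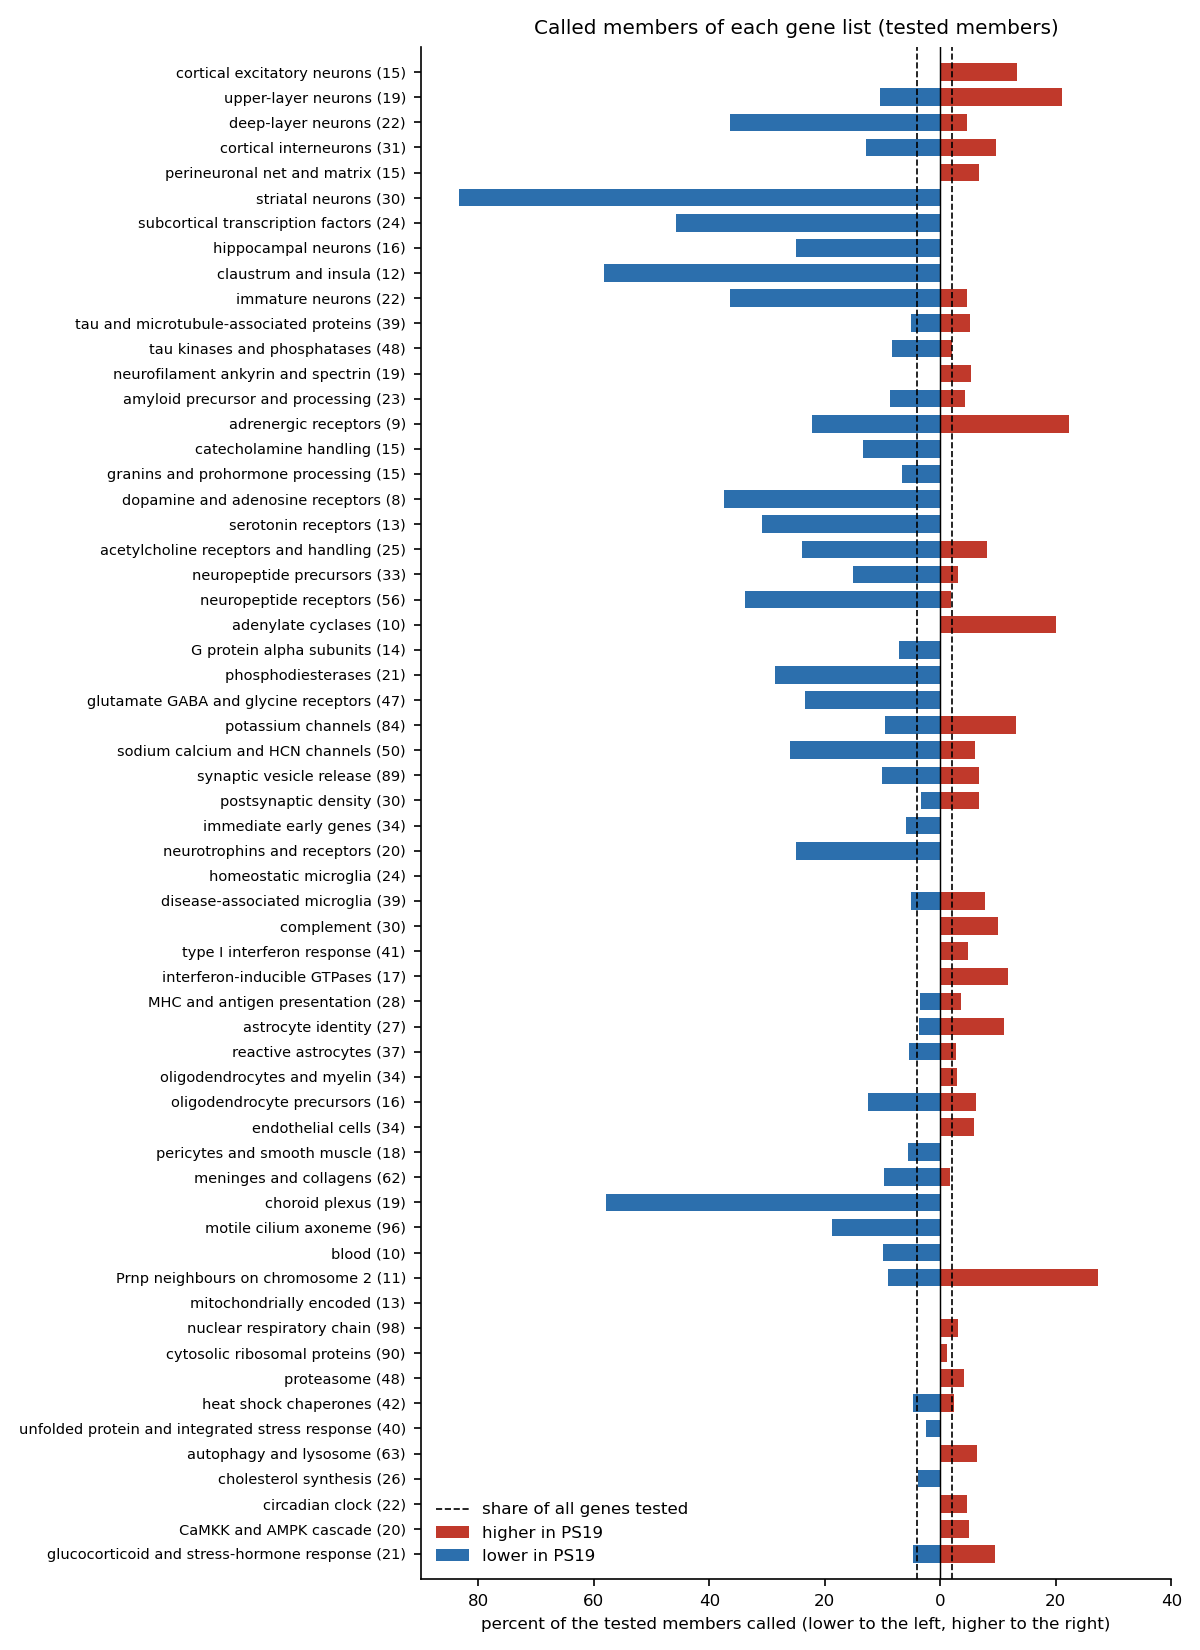
Percent of the tested members of each gene list that were called higher (red, right) or lower (blue, left) in PS19, with the number tested in brackets and dashed lines at the shares of all genes tested (1.95% and 3.95%). Striatal markers reach 83.3% lower, claustrum 58.3% and choroid plexus 57.9%, while potassium channels have the largest share of higher members among lists of over 30 genes at 13.1%.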

How the data were processed

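Poly(A) RNA from prefrontal cortex was sequenced as paired ends. Per the labels and the study's methods, the authors trimmed reads (Trimmomatic 0.39), aligned them to mm10 (STAR 2.7.10b), quantified genes with StringTie 1.3.6 and deposited a table of raw counts per gene. The strand setting and annotation release are not given in the sources used here, so overlapping and antisense genes cannot be told apart. Each fragment gives about 3 counts, so a count of 0 allows up to 3 fragments, or 9 counts (0.164 CPM in the shallowest PS19 and 1.03 CPM in the shallowest WT library), for counting error only. Of 56953 genes, 39993 had a count and 23062 passed edgeR's filterByExpr.

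Counts of all 17 libraries were fitted with edgeR 4.0.16 (TMM, quasi-likelihood test, R 4.3.3) and PS19 was contrasted with WT, p-values being adjusted by Benjamini-Hochberg across the whole table. Library measures were compared by two-sided exact permutation tests (scipy 1.17.1). Alternatives used DESeq2 1.42.0, limma 3.58.1 (voom with sample quality weights), other filters, covariates and sets of libraries. On simulated counts for 22611 genes, 186 of 200 genes changed by a log2 fold change of 2 were recovered, with 11 false calls. That change is larger than the median of the called genes (0.72 higher, -1.08 lower), and recovery of smaller changes was not tested. False calls among libraries as close to each other as some PS19 replicates were not tested either. The simulation therefore does not give the rate of false calls or of recovery in these data. Coordinates are from GENCODE M21 (52029 genes matched) and promoters from RefSeq.

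The comparison and its 61 gene lists were chosen with earlier results of these data known. The rule for named genes gave the genotype genes, the 9 adrenergic receptors, the measured cytokines, the 10 genes per direction with the smallest p among those without overlap, and up to 4 called genes per direction (or 2 uncalled) per list. It gave 208 genes, of which 138 are described. That choice was made after the values were seen and leans towards stable calls: 88 of the 120 called genes that are described kept their call in every fit without 1 library, against 28 of the 67 called genes that are not. Genes of chromosome 18 were counted but not named, and some other genes given by the rule are not reported here. Same-numbered WT and PS19 libraries were not treated as pairs (correlations of their deviations between -0.0188 and 0.112).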

Additional observations from a re-analysis of the deposited data

Results flagged for a closer look

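In 29 of 276 gene and genotype combinations, 1 library stood apart from the others of its genotype by Dixon's criterion, which chance meets in about 1 in 20 groups. PS19 replicate 1 was that library in 13 of them, WT replicate 5 in 7, WT replicate 4 in 2 and WT replicate 1 in 1.

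PS19 replicate 1 stood apart at 453.8 CPM for Lynx1, 125.7 for Stac2, 1210 for Adcy1, 866.3 for Cplx1, 178.7 for Adcy2, 4.74 for C1ra and 0.838 for C2, each the lowest PS19 value. It stood apart at 16 CPM for Sox11, 48.7 for Nr4a2, 211.2 for Baiap2, 328.4 for Timp2, 4.63 for Siglech and 21.7 for Lhfpl3, each the highest PS19 value. In each of these genes that was called, its value lay nearer to WT than those of the other PS19 libraries.

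WT replicate 5 stood apart at 38.7 CPM for Stac2 and 11.8 for Coro6 (low), and at 159.3 for Htr2c, 24.7 for Clic6, 19.3 for Sostdc1, 35.4 for Kl and 0.0772 for Ccl3 (high). WT replicate 4, the shallowest library, stood apart at 198.6 CPM for Mapt and 7946 for mt-Nd2, with 7.94% mitochondrial counts and 16% of counts in the 50 most abundant genes.

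Single libraries also stood apart for Mapt (951.9 CPM in PS19 replicate 3), Syt9 (8.25 in PS19 replicate 3), Cxcl12 (45.7 in PS19 replicate 3), Mme (49.1 in WT replicate 3), Siglech (8.65 in WT replicate 1), Il6 (0.123 in WT replicate 2) and Tnf (0.0664 in WT replicate 3). The last pair are at the level of a few fragments.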

How the results depend on the processing

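The number of genes higher in PS19 (450) was 1019 with DESeq2, 975 with only the 2 genotypes fitted, 1868 with limma voom and sample quality weights (weighted voom), 1597 with the striatal marker level as a covariate, 75 with PS19 replicates 4 to 6 averaged, and 105 without WT replicates 3 and 5, an alternative chosen after seeing the data. The number lower (911) was 1389 with DESeq2, 2099 with weighted voom, 2327 with the covariate, 359 with replicates averaged and 370 without those WT libraries. Leaving out 1 library gave 127 to 520 higher and 505 to 951 lower genes, with the lowest counts without WT replicate 5. At the study's threshold the higher genes (649) were 1097 with weighted voom, 376 with replicates averaged, 1597 with the covariate and 402 to 728 without 1 library, and the lower genes (1055) were 2012 with the covariate. Other size factors, other filters, Ddx3y as a covariate and removal of mitochondrial genes kept both counts within 1.5 times. Replicate numbers were shared by the labels, but 2 of 5 WT libraries correlated best with their own number, so the numbers were not taken as pairs. With the replicate number as a block 147 genes were higher and 513 lower. The sign of the fold change turned with the striatal covariate for Adra2b (0.19), Adra2c (0.66), Adrb1 (-0.42), Hapln4 (-0.29), Pde10a (0.14), Chrm3 (-0.13), Chat (0.00), P2ry13 (0.06) and C1ra (-0.30), none of them called there. The striatal covariate did not overlap between WT and PS19, so the counts and signs of that fit are extrapolations. Without 1 library Adrb3 ranged from -0.15 to 0.07 (positive without WT replicate 1, at 0.07, without WT replicate 2, at 0.00, and without replicate 5 of PS19, at 0.01) and Cxcl10 from -0.93 to 0.67 (positive without WT replicate 3). Cxcl10 was at 0.02 with weighted voom and 0.00 without WT replicates 3 and 5. The difference in the share of the 50 most abundant genes turned from -0.3642 to 0.6117 percentage points without WT replicate 4. The cause of these changes was not tested. Of the 187 called genes given by the naming rule, 116 kept their call in every fit without 1 library, 97 without WT replicates 3 and 5, and 93 with PS19 replicates 4 to 6 averaged.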

Other observations

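Of the higher genes 6 had no count in any WT library. Beside Lamr1-ps1 these were 4930590L14Rik (chr3:140951876-140953247), at 0.51 to 0.972 CPM in PS19 (median 0.707, adjusted p = 2.80e-05), Gm6214 (chr3:140839097-140839637), at 0.0588 to 0.192 CPM (adjusted p = 0.0149), Gm13872, Spp2 and Fhad1os2. 4930590L14Rik and Gm6214 lie 112239 bases apart on chromosome 3, and 4930590L14Rik was at 0.535 to 1.59 CPM in the CgA-KO/PS19 libraries. The study places the transgene on chromosome 3, and its distance from this pair was not examined. These genes were chosen after their values were seen, and the source of their counts was not tested.

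Of the lower genes 11 had no count in any PS19 library: Isl1, Lhx8, Barhl2, Gm29771, Chrna10, Tfap2c, Meox2, Car1, Vmn1r206, Gm4926 and Gm15825. In CgA-KO/PS19 Isl1 reached 2.83 CPM, Barhl2 1.77 CPM and Lhx8 1.27 CPM.

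Among PS19 replicates 4 to 6, which resembled each other closely, 234 of 11774 genes with at least 500 counts (1.99%) still differed by more than 2-fold between the highest and lowest library, and 5 of them were called between PS19 and WT.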
